A study of Mus musculus with 9 samples.

Results

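The L2, CR1 and RTE elements are the oldest recognisable LINEs of the mouse genome, and this report describes the RNA counts on their single copies in WT, G1 Terc-/- and G4 Terc-/- mouse embryonic stem cells (ESCs). Members were chosen by annotation alone, as the copies of class LINE whose family is L2, CR1 or begins with RTE. They numbered 10069 of the 623916 repeat copies in the count table. Every copy in that table had counts, so copies of these families without any count are not among the members. Numbers, lengths and shares of copies below therefore describe copies with counts. The L2 family held 8648 of them, the CR1 family 1243, the RTE-X family 168 and the RTE-BovB family 10.

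The study asked how telomere shortening after loss of the telomerase RNA gene Terc relates to retrotransposon transcription. RNA of feeder-depleted ESCs from the C57BL/6 strain was sequenced in 9 libraries, 3 for each group, at early passage by the series title. WT ESCs carried Terc. G1 Terc-/- ESCs lacked Terc for 1 generation and, per the study's methods, came from blastocysts of intercrossed heterozygous parents. G4 Terc-/- ESCs were in the fourth generation without Terc and came from intercrosses of third-generation knockout mice. The study's methods name a number of biological replicates per line that differs from the number of libraries here, and the sources do not say how the 3 libraries of a group relate to separate ESC lines or cultures, so p-values measure the spread between these libraries, and a property of an ESC line and the generation of knockout cannot be told apart. The table holds rows of repeats, so Terc itself was not read here.

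LINEs are retrotransposons that encode a reverse transcriptase and copy themselves through RNA. L2 and its relative CR1 (the L3 repeats) spread in early mammals and before, and the RTE-like L4 and L5 repeats are of similar depth. None is known to move in the mouse today, so a copy is a short relic that is usually transcribed as a piece of whatever gene surrounds it. L2 relics have also been reported to supply parts of exons, microRNA hairpins and target sites in messenger RNAs. MIR, a short interspersed repeat, is thought to have been mobilised by L2, and MIR and the ancient L1M LINEs are therefore used below as the most similar repeats.

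The members were short and diverged. Their median length was 151 bp and the longest was 1623 bp. The number in the row names that is read here as divergence from the repeat consensus had a median of 31.6% for members, against 30.5% for MIR, 27.9% for L1M, 3.4% for the young LINE L1Md_T and 3% for the retrovirus IAPEz-int. The sources do not define that number. Of the member counts, 87.5% lay on copies whose values were whole numbers in every library, against 67.6% for L1M and 63.4% over the whole table. The L2c subfamily had 68.5%. The sources do not say what a fractional count is, and it may be a read shared between copies.

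Library depth was 918879 to 1137257 counts over all repeats, of which members took 15169 to 18410. Over the 9 libraries the members held 152223 counts, or 1.68% of the table. They were thinly spread, with 2784 copies having at least 5 counts in all and 223 copies passing the expression filter for testing (164 L2, 58 CR1, 1 RTE-X and no RTE-BovB copy). In a simulation, 2-fold changes were recovered for 42.4% of 66 changed copies and 4-fold changes for 87.9% of 66, among 13278 copies. Only 93 copies were called there, against 5648 in G4 against WT. With more calls the same adjusted p allows a larger unadjusted p, so these shares do not measure detection in the real data.

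Some of the copies that results below turn on overlap an annotated exon outside any UTR, and their sequences are given here. Whether the exon bases derive from the repeat was not tested. Each is written 5′ to 3′ on the strand of the named gene, was read from the GENCODE M21 transcripts (GRCm38, the mm10 assembly), and has coding bases in capitals and non-coding exon bases in lower case. The first 5 are all of the coding-exon copies that were called in G4 against WT. The last 3 are copies in non-coding exons with the largest changes.
Phldb2 L3, chr16:45825941-45826022, minus strand: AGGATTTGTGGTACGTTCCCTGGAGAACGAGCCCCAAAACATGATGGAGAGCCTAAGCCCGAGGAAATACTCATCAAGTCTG
Sptan1 L3b, chr2:29978475-29978566, plus strand: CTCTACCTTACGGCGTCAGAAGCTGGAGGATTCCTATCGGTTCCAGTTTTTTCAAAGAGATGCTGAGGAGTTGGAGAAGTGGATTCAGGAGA
Sntb2 L3, chr8:107001553-107001657, plus strand: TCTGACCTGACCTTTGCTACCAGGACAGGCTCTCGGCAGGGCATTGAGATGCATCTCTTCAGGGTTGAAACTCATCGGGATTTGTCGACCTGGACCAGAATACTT
Dock6 L3, chr9:21812965-21813051, minus strand: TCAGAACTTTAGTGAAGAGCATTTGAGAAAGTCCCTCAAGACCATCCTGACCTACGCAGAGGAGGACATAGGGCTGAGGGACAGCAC
Rnf17 L2, chr14:56431557-56431631, plus strand: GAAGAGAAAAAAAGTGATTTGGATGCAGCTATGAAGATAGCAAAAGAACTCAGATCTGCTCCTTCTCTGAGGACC
Plaur L2b, chr7:24472745-24472911, plus strand: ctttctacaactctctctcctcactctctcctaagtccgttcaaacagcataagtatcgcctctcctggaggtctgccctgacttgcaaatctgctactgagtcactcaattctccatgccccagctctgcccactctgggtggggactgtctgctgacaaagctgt
Taf8 L2a, chr17:47493264-47493388, minus strand: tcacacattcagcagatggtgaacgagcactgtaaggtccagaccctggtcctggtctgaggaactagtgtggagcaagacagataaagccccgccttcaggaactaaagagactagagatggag
4930461G14Rik L2c, chr9:58455168-58455244, plus strand: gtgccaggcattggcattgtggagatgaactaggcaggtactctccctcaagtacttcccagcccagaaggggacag

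Most of the counts on these relics lay in annotated exons of genes. Copies with at least 0.5 of their length in an exon made up 9.67% of the members and took 65.6% of their counts, against 6.41% of copies and 47.0% of counts over all repeats. The 3′ UTR dominated, with 387 copies (3.84%) and 54.9% of the member counts. Introns held 74.4% of the copies and 28.9% of the counts. A copy was taken as intronic if it overlapped a gene with less than 0.5 of its length in an exon, so it could be partly exonic. Coding exons held 64 copies (0.636%) and 4.19% of the counts. The 769 copies more than 5 kb from any gene model used for placement (7.64%) held 1.88% of the counts, against 8.33% over all repeats. MIR was alike in having 69.2% of its counts in exons, and L1M had 60.6%.

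**Figure D1:**
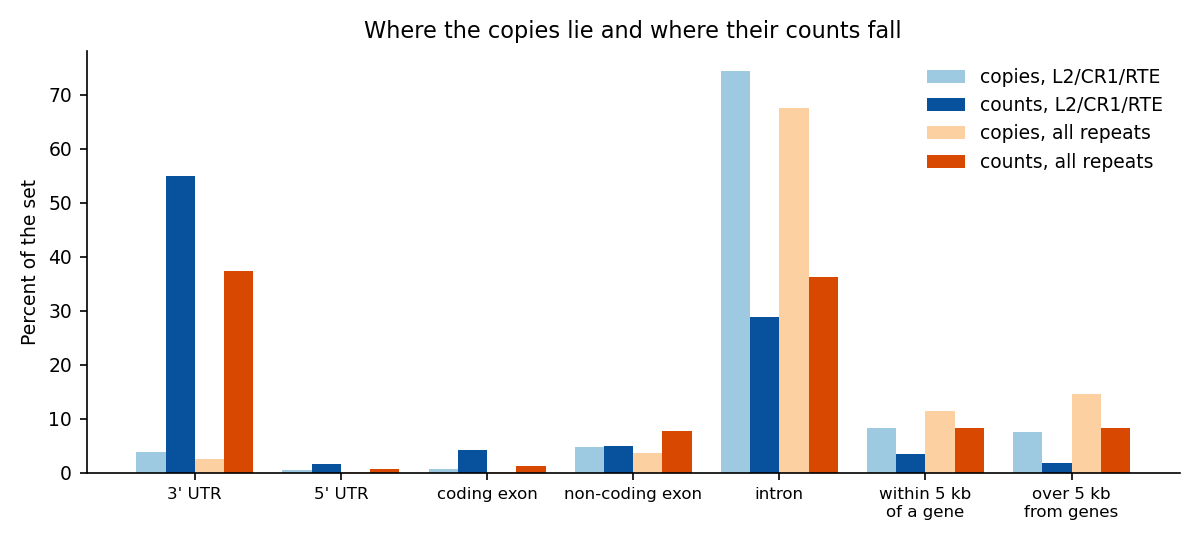
Percent of copies (light bars) and of counts over all 9 libraries (dark bars) in each kind of place, for the L2, CR1 and RTE copies (blue) and for all repeats of the table (orange). The 3′ UTR held 3.84% of the L2, CR1 and RTE copies but 54.9% of their counts, while introns held 74.4% of the copies and 28.9% of the counts.

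The copies with the most counts were all in genes, and 6 of the 8 highest lay in 3′ UTRs. Levels are given as CPM (counts scaled to a common library size by TMM) and, between copies of different length, as mean CPM per kb. Tubb5 L2a, in the 3′ UTR of a beta-tubulin gene, was highest at 10734 CPM per kb, followed by G3bp2 L3, in the gene of a stress granule RNA-binding protein, at 8992 CPM per kb. Aplp2 L2 (an amyloid precursor-like protein gene) reached 4964, Colgalt1 L2a (a collagen galactosyltransferase) 4092, Prelid1 L2a (a mitochondrial lipid transfer protein) 3274, Sptan1 L3b (the coding exon of alpha spectrin) 3061 and Cdkn1a L2c (the cell cycle inhibitor p21) 2417 CPM per kb. Srrm2 L2c, a 752 bp intronic copy in the gene of a nuclear speckle protein, had 685 CPM per kb.

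In G4 against WT, 97 of the 223 tested copies passed edgeR's quasi-likelihood test at an adjusted p under 0.05, 45 of them higher and 52 lower in G4. This was 43.5% of the tested members, beside 42.5% of all 13278 tested copies (21.3% rises and 21.3% falls), 40.8% of MIR and 36.1% of L1M copies, so the share of changed members was near that of the whole table. The median log2 fold change was -0.10 for members and -0.018 for all copies. Past a 2-fold change, 28 of these calls were rises and 33 were falls. By the rule of an unadjusted p under 0.05 with a 2-fold change, 62 members passed, beside 32.7% of all copies, and the WT and G4 libraries did not overlap for 117 members (52.5%), beside 52.2% of all copies.

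In G1 against WT the calls were few. The test called 13 members (5.83%), 3 higher and 10 lower in G1, beside 6.77% of all copies (2.41% rises and 4.36% falls), 9.09% of MIR and 3.99% of L1M copies. With the 2-fold rule 10 members passed, beside 7.09% of all copies, and 48 members (21.5%) had groups that did not overlap, beside 23.8%. Without WT replicate 2, or without G1 replicate 2, 5 calls were made in place of 13.

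In G4 against G1 the pattern was again near the background. The test called 80 members (35.9%), 40 higher and 40 lower in G4, beside 38.2% of all copies (19.0% rises and 19.2% falls). The 2-fold rule passed 55 members, beside 29.0% of all copies, and 97 members (43.5%) had groups that did not overlap, beside 48.4%. Since the comparisons share libraries, their counts are set side by side and not compared by a test.

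**Figure D2:**
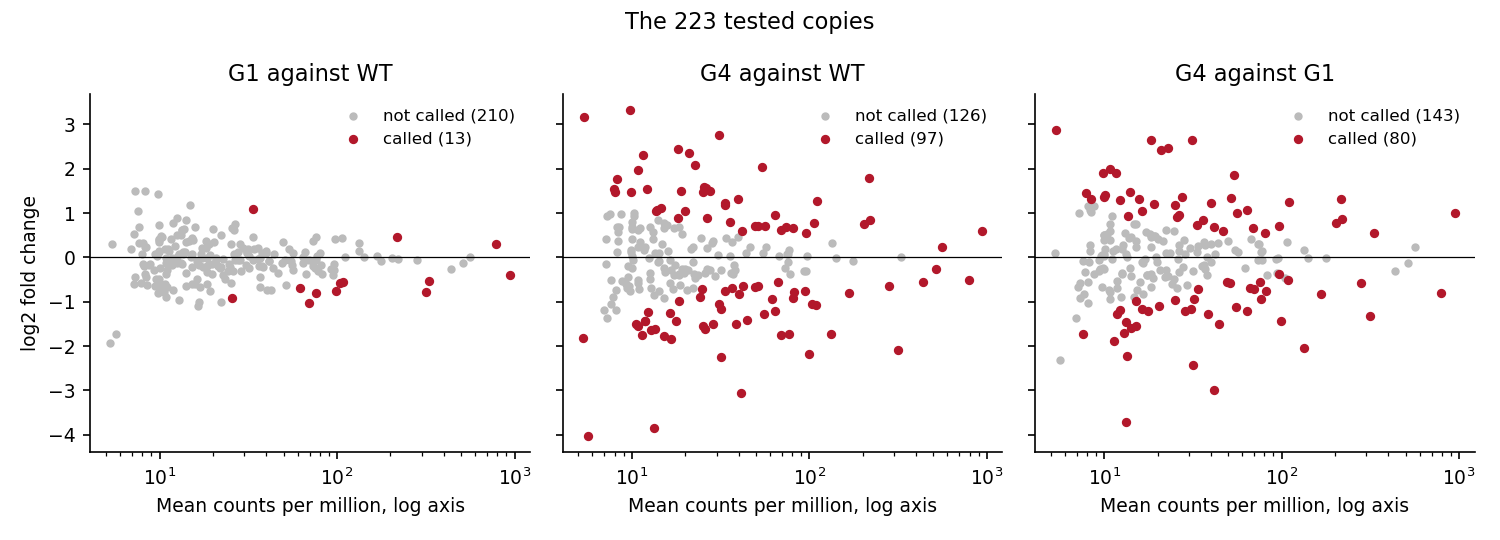
The log2 fold change of each of the 223 tested copies (vertical axis) against its mean CPM over the 9 libraries (horizontal log axis), in 1 panel per comparison, with called copies in red and the others in grey. The called copies number 13 in G1 against WT, 97 in G4 against WT and 80 in G4 against G1, on both sides of 0 in each panel.

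Summed levels of cell type marker lists differed between the groups. Each is a sum, in which 1 gene can dominate, and the directions of single markers are not given. Read only through repeats in exons, 12 of 24 ESC markers had values (Nanog, Zfp42, Esrrb, Tfcp2l1, Dppa2, Tdgf1, Lin28a, Tet1, Tet2, Prdm14, Fgf4, Cdh1). Their summed level was 9478 to 9949 CPM in WT, 13519 to 14226 in G1 and 25790 to 30011 in G4. Pou5f1 and Sox2 were among those not read. Pdgfra is in both the primitive endoderm and the feeder sums below. The 5 primitive endoderm markers that were read of 13 (Gata4, Sox7, Pdgfra, Col4a2, Sparc) summed to 4471 to 4600 CPM in WT, 1950 to 2086 in G1 and 144 to 180 in G4. The 6 feeder fibroblast markers read of 16 summed to 99.2 to 148 CPM in WT, 151 to 190 in G1 and 177 to 212 in G4, and the 2 markers of 2-cell-like cells read of 9 to 0 to 2.09 CPM, 0 CPM and 7.19 to 16.5 CPM. Fewer cells of a type and less RNA per cell cannot be told apart in these bulk samples, and the part of these shifts in the results on L2, CR1 and RTE copies was not tested.

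Among the members that were lower in G4, the steepest falls with at least 20 counts per library on average and no overlap between WT and G4 were those in Plaur, Abcb1b, Suv39h1 and Colgalt1. Plaur L2b, in a non-coding exon of the urokinase receptor gene (sequence above), had 62.6, 61.7 and 56.7 CPM in the WT libraries, 63.8, 55.9 and 50.7 in G1, and 7.71, 10.1 and 3.6 in G4. G1 overlapped WT while all G4 libraries lay far below both. The log2 fold change of G4 against WT was -3.07 (SE 0.284, adjusted p = 2.5e-09), and the other repeats in the exons of Plaur fell by 3.50 on the log2 scale (adjusted p = 1.39e-26).

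Suv39h1 encodes a methyltransferase that places the H3K9me3 mark of heterochromatin, and its 3′ UTR holds an L2c copy (chrX:8061431-8061659). This copy had 146, 155 and 192 CPM in WT, 103, 92.3 and 95.9 in G1, and 39.6, 38.5 and 30.6 in G4. The 3 groups did not overlap, with G1 between the other two. The log2 fold change was -2.19 (SE 0.165, adjusted p = 5.03e-11) for G4 against WT and -0.76 (SE 0.144, adjusted p = 0.000978) for G1 against WT. The other exonic repeats of Suv39h1 changed by -2.20 in G4 against WT and were not called in G1 against WT (-0.33, adjusted p = 0.0859).

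The same order of groups, with no overlap, was seen in 3 more of these copies. Colgalt1 L2a (chr8:71624133-71624209, 3′ UTR) had 513, 525 and 517 CPM in WT, 287, 302 and 324 in G1, and 124, 131 and 112 in G4, a log2 change of -2.08 (SE 0.107, adjusted p = 2.72e-14). Mfsd1 L2a, in the 3′ UTR of a lysosomal transporter gene (chr3:67604045-67604169), had 112, 132 and 108 CPM in WT, 65.8, 47.9 and 58.4 in G1, and 31.9, 35.7 and 36 in G4. Its log2 fold change was -1.75 (adjusted p = 1.11e-08), and the other repeats of Mfsd1 changed by -2.22. Phldb2 L3, in a coding exon of a cortical scaffold protein gene, had 121, 126 and 121 CPM in WT, 62.7, 74.6 and 72.7 in G1, and 37.4, 36.6 and 36 in G4, a log2 change of -1.74 (SE 0.16, adjusted p = 2.43e-09).

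Abcb1b L2, an intronic copy on the antisense strand of a drug efflux pump gene (chr5:8806680-8806988), fell by 2.24 on the log2 scale (SE 0.346, adjusted p = 9.23e-06). Its levels were 37.6, 41.8 and 41.4 CPM in WT, 59.6, 40.8 and 37.5 in G1, and 13.2, 10.1 and 2.7 in G4. G1 overlapped WT and the G4 libraries lay below both. Further falls of this kind were in the 3′ UTRs of Clip1 (L3, a microtubule plus-end protein gene, log2 fold change -1.62, adjusted p = 8.53e-05), Il17ra (L2c, the interleukin-17 receptor, -1.54, adjusted p = 7.57e-05) and Lpp (L2, a focal adhesion protein gene, -1.51, adjusted p = 0.000427).

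The largest rise of the same kind was Pnkd L2c, a 456 bp copy in a 3′ UTR (chr1:74353226-74353681). It had 8.35, 10.5 and 12.5 CPM in WT, 14.6, 9.76 and 9.92 in G1, and 66.1, 78.7 and 69.3 in G4, a log2 change of 2.76 (SE 0.261, adjusted p = 3.86e-09). The 3 G4 libraries stood well above the other 6. Mmp17 L2b, in the 3′ UTR of a membrane-anchored metalloproteinase gene (chr5:129607626-129607732), had 24, 20.9 and 31.7 CPM in WT, 23, 24 and 41.9 in G1, and 115, 109 and 95.4 in G4, a log2 change of 2.04 (SE 0.216, adjusted p = 2.78e-08).

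Bcat1 L2c was the most abundant copy among the large rises. Bcat1 encodes the cytosolic branched-chain aminotransferase, and the copy lies in its 3′ UTR (chr6:144999426-144999528). It had 98.1, 112 and 124 CPM in WT, 141, 156 and 165 in G1, and 337, 396 and 418 in G4, with no overlap between any of the groups. The log2 fold change was 1.78 (SE 0.125, adjusted p = 1.14e-11), and the other repeats of Bcat1 changed by 1.75.

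4930461G14Rik L2c, in an exon of a long non-coding RNA gene (sequence above), had 5.22, 9.42 and 19.2 CPM in WT, 12.5, 8.88 and 4.41 in G1, and 42.9, 58.6 and 44.1 in G4. Its log2 fold change was 2.08 (SE 0.344, adjusted p = 2.38e-05), and the gene's other repeats changed by 3.56. The other rises named by the same rule were smaller. They were in the 3′ UTRs of Epdr1 (L2b, log2 fold change 1.58, adjusted p = 0.000222), Deptor (L2c, a gene for an inhibitor of mTOR, 1.57, adjusted p = 6.98e-05), Cog4 (L3, a Golgi tethering subunit gene, 1.49, adjusted p = 0.000107), Thra (L2b, a thyroid hormone receptor gene, 1.48, adjusted p = 0.00138) and Dlc1 (L2c, a GTPase-activating protein gene, 1.33, adjusted p = 9.01e-05).

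**Figure D3:**
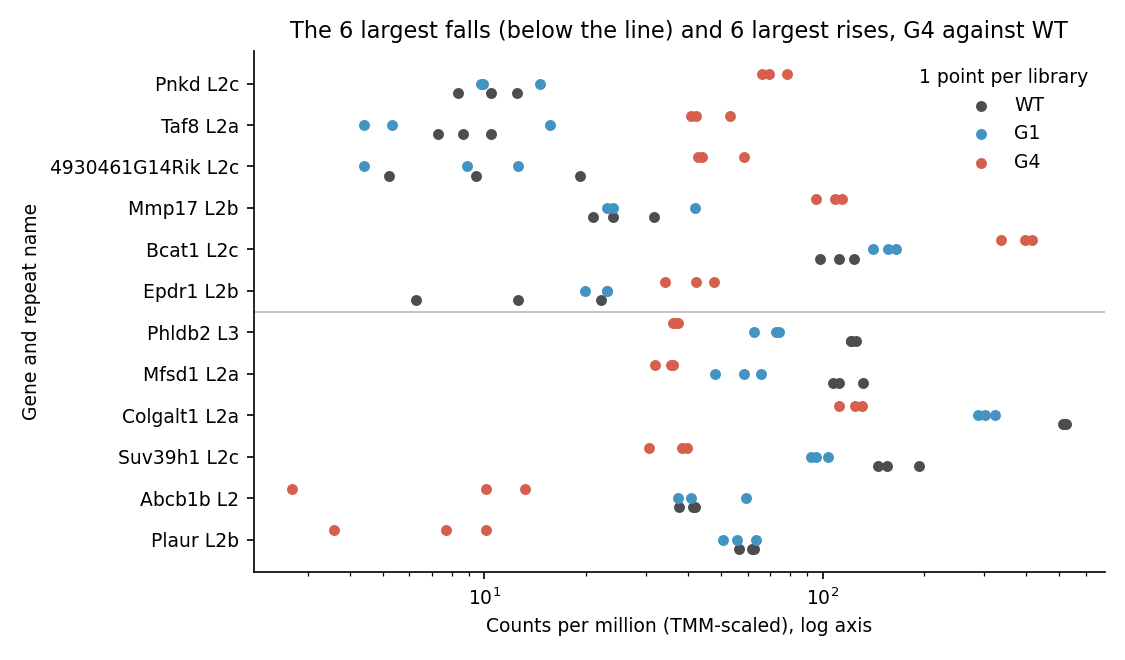
CPM of each library (1 point per library, log axis) for the 6 largest rises (above the line) and 6 largest falls (below it) among called L2, CR1 and RTE copies in G4 against WT, with WT in dark grey, G1 in blue and G4 in red. The WT and G4 points do not overlap in any row, as the rule of choice requires, and the G1 points of Suv39h1 L2c, Colgalt1 L2a, Mfsd1 L2a and Phldb2 L3 lie between the 2 other groups.

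Whether a copy moved with its gene was read from the gene's other repeats, which are separate rows of the table. Over all genes read in this way, 48.6% were called in G4 against WT by repeats in exons and 29.7% by repeats in introns. These shares count calls in either direction, and no such share was taken for the sign alone. A value was available for the gene of 137 of the 223 tested copies. Of the 58 called copies with such a value, 40 lay in a gene whose other repeats were called in the same direction, 2 in a gene called in the opposite direction and 16 in a gene that was not called, and 52 had the same sign as their gene. In another 25 cases only the gene was called, and in 54 neither. TMM factors were set separately for copies and for genes. With the factors of single copies, an alternative added after seeing the data, the median of all genes read by exonic repeats moved up by 0.060. Small gaps between a copy and its gene therefore depend on the scaling. The kit does not mark strand, so the RNA of a copy and of an overlapping antisense transcript could not be told apart.

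The 2 opposite cases were neighbouring copies in Srrm2. Without TMM, 0 called copies lay in a gene called in the opposite direction, so these cases depended on the scaling. Srrm2 Plat_L3 (3′ UTR, chr17:23821904-23821995) had 15.7, 12.6 and 10.6 CPM in WT, 21.9, 19.5 and 18.7 in G1, and 31.9, 24.7 and 24.3 in G4, a log2 fold change of 1.05 (adjusted p = 0.00659). Srrm2 L3b (non-coding exon, chr17:23822098-23822205) had 9.39, 9.42 and 14.4 CPM in WT, 17.8, 8.88 and 15.4 in G1, and 35.2, 33.9 and 27 in G4, a log2 fold change of 1.51 (adjusted p = 0.000521). The other exonic repeats of Srrm2 changed by -0.31 (adjusted p = 0.00453), and the large intronic Srrm2 L2c copy nearby by -0.25 (adjusted p = 0.036). These Srrm2 copies, and those of the next paragraph that the naming rule did not pick, were singled out after their values were seen.

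Taf8 gave the widest gap between a rising copy and its gene. Taf8 encodes a subunit of the general transcription factor TFIID, and 2 neighbouring L2a copies lie in a non-coding exon of it. The first (sequence above) had 7.3, 10.5 and 8.65 CPM in WT, 15.7, 5.33 and 4.41 in G1, and 40.7, 42.1 and 53.1 in G4, a log2 change of 2.35 (SE 0.347, adjusted p = 5.13e-06). The second (chr17:47493131-47493240) had 4.17, 5.23 and 6.73 CPM in WT, 4.18, 6.21 and 5.51 in G1, and 25.3, 18.3 and 21.6 in G4, a log2 fold change of 1.98 (adjusted p = 0.000329). The other exonic repeats of Taf8 differed by 0.08 (adjusted p = 0.782). The pair share 1 transcript and are not independent. Of the called copies, 4 more had another sign than their gene, which was not called, namely Caprin1 L2a (0.61 in the copy, -0.22 in the gene), Atxn7l1 L2c (-0.94 and 0.13), Bccip L2 (-0.77 and 0.02) and Elac1 L2a (1.54 and -0.09).

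**Figure D4:**
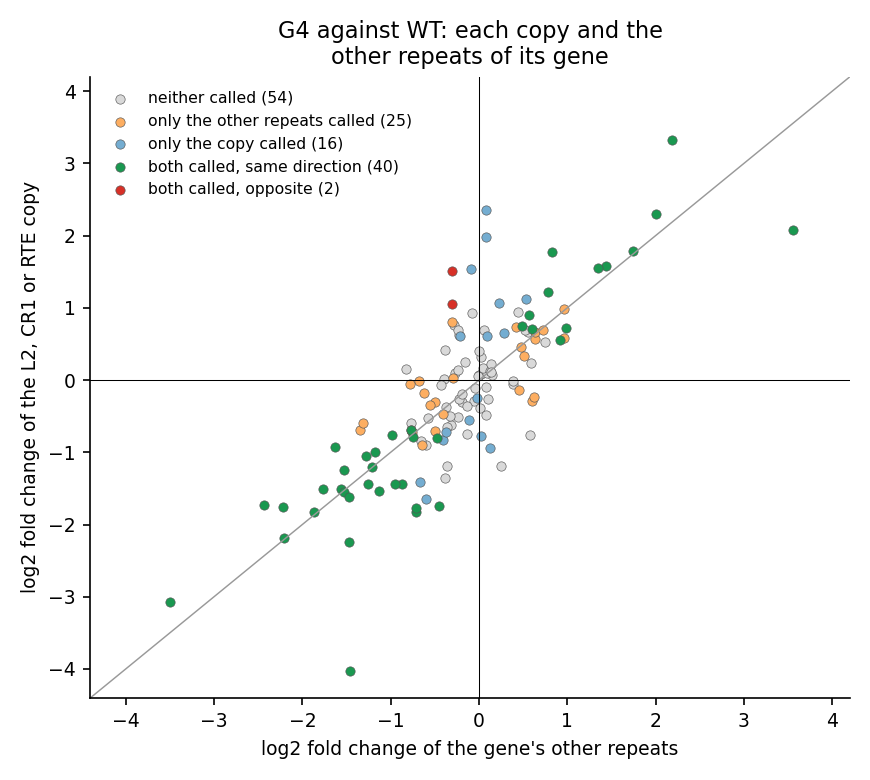
The log2 fold change in G4 against WT of each of the 137 tested copies with a gene value (vertical axis) against that of the other repeats of the same gene (horizontal axis), coloured by which was called, with the line of equal change. Of the points, 40 have both called in the same direction and 2, both in Srrm2, have both called in opposite directions. Without TMM, 0 copies were of the latter kind.

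The other comparisons gave smaller numbers of the same kind. In G1 against WT, 4 of the 6 called copies with a gene value lay in a gene called in the same direction and none in the opposite one. There 11.2% of genes were called in either direction by exonic and 2.52% by intronic repeats. In G4 against G1 it was 29 of 45 and none, where 43.5% and 24.5% of genes were called in either direction.

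By place, 42 of the 179 tested exonic copies rose in G4 against WT and 42 fell (46.9% called, beside 42.2% of all exonic repeat copies). In 3′ UTRs 32 of 138 rose and 35 fell (48.6%, beside 43.6%), in non-coding exons 6 of 23 and 5 (47.8%, beside 34.9%), and in 5′ UTRs 1 of 6 and none (16.7%, beside 32.8%). Introns held 34 tested copies, of which 1 rose and 7 fell (23.5%, beside 37.2% of all intronic copies, where 715 rose and 657 fell). The 9 tested copies within 5 kb of a gene gave 2 rises and 2 falls (44.4%, beside 48.2%). The differences between members and all copies of a place were not tested. A single copy far from genes was tested, Olfr687 L2c (chr7:105254023-105254266), which lies 18586 bp from the nearest gene, an olfactory receptor pseudogene. It had 128, 167 and 158 CPM in WT, 111, 95.9 and 101 in G1, and 76.0, 65.9 and 74.7 in G4, with no overlap between groups. Its log2 fold change was -1.07 in G4 against WT (SE 0.145) and -0.56 in G1 against WT (adjusted p = 0.0118).

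The calls were also counted by orientation and position. Copies in the sense of their gene were called in 47.7% of 109 cases (23 rises, 29 falls) and antisense copies in 38.5% of 104 (20 rises, 20 falls), a difference that was not tested. Within 20 Mb of the distal chromosome end, 36 copies were tested, and 7 rose and 6 fell (36.1%), beside 40.0% of the 2527 tested copies of all repeats there. On chromosome 6, 1 of 12 tested copies rose and 4 fell, beside 89 rises and 184 falls among 581 tested copies of all repeats there. By exome sequencing, the study reported loss of part of this chromosome in G3 and G4 Terc-/- ESCs. The part of that loss in the counts of these libraries was not tested. On the X chromosome none of 13 rose and 4 fell, beside 69 rises and 117 falls among 468, so falls outnumbered rises over all repeats on both chromosomes.

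In coding exons, 5 of 12 tested copies were called in G4 against WT (41.7%, beside 46.5% of all 86 tested coding-exon copies), and they are the copies whose coding sequences are printed above. Phldb2 L3 was described with the falls. Sptan1 L3b had 326, 349 and 300 CPM in WT, 267, 354 and 314 in G1, and 207, 226 and 192 in G4, a log2 fold change of -0.64 (adjusted p = 8.34e-05) with all G4 libraries below the other 6. Rnf17 L2, in a gene for a Tudor domain protein of germ cells, had 25, 12.6 and 15.4 CPM in WT, 26.1, 35.5 and 26.4 in G1, and 31.9, 34.8 and 31.5 in G4, a log2 fold change of 0.89 (adjusted p = 0.0133). Here both knockout groups lay above WT, and G1 was not called.

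Sntb2 L3, in a syntrophin gene, had 8.35, 14.6 and 16.3 CPM in WT, 17.8, 17.8 and 15.4 in G1, and 20.9, 26.6 and 26.1 in G4, a log2 fold change of 0.90 (adjusted p = 0.0246), while its gene's other repeats changed by 0.56. Dock6 L3, in a gene for a guanine nucleotide exchange factor, had 6.26, 3.14 and 11.5 CPM in WT, 8.36, 5.33 and 12.1 in G1, and 25.3, 20.1 and 18 in G4, a log2 fold change of 1.55 (adjusted p = 0.00454) beside 1.35 for its gene. In both, the G4 libraries lay above all others.

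Of the 8 most abundant copies, Tubb5 L2a and G3bp2 L3 had opposite signs in G1 and G4 against WT. Tubb5 L2a (chr17:35834803-35834890) had 770, 981 and 840 CPM in WT, 713, 588 and 670 in G1, and 1295, 1301 and 1344 in G4. G1 lay below WT (log2 fold change -0.40, adjusted p = 0.00747, but 0.0792 without WT replicate 2 and 0.0602 without G1 replicate 2) and G4 above it (0.60, adjusted p = 7.06e-06), while the other repeats of Tubb5 differed by 0.10 in G4 against WT (adjusted p = 0.381). G3bp2 L3 (chr5:92053852-92053939) moved the other way, with 830, 753 and 833 CPM in WT, 991, 1014 and 994 in G1, and 513, 598 and 596 in G4. Its log2 fold change was 0.31 in G1 (adjusted p = 0.0218) and -0.50 in G4 (adjusted p = 3.78e-05) against WT. The G1 call was lost without any 1 of the WT or G1 libraries (adjusted p from 0.0603 to 0.19).

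Of the others, Cdkn1a L2c had 410, 588 and 563 CPM in WT, 462, 356 and 494 in G1, and 356, 365 and 345 in G4, a log2 fold change of -0.55 (adjusted p = 0.000851) in G4 against WT, with G1 overlapping WT. Prelid1 L2a had 310, 415 and 380 CPM in WT, 313, 203 and 247 in G1, and 367, 403 and 338 in G4. It differed from WT in G1 (log2 fold change -0.54, adjusted p = 0.0115) and not measurably in G4 (0.00, SE 0.13, adjusted p = 0.985). The G1 call was lost without WT replicate 2 (adjusted p = 0.0828) and without G1 replicate 2 (adjusted p = 0.0962). Aplp2 L2 had 532, 521 and 531 CPM in WT, 584, 475 and 540 in G1, and 598, 631 and 636 in G4. Its log2 fold change in G4 against WT was 0.24 (adjusted p = 0.0399), a call that was lost in 8 of the 9 refits without 1 library (adjusted p up to 0.171). Srrm2 L2c had 553, 516 and 614 CPM in WT, 493, 501 and 546 in G1, and 506, 438 and 471 in G4, and its call (adjusted p = 0.036) did not pass without TMM scaling (adjusted p = 0.112) or with DESeq2 (adjusted p = 0.0634).

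Of the calls in G1 against WT, the largest rise was Thbd L2, in the 3′ UTR of the thrombomodulin gene (chr2:148405062-148405138). It had 17.7, 20.9 and 16.3 CPM in WT, 46, 35.5 and 36.4 in G1, and 44, 41.2 and 43.2 in G4, so that the knockout groups overlapped each other and both lay above WT. Its log2 fold change was 1.09 in G1 (SE 0.247, adjusted p = 0.00547) and 1.22 in G4 (adjusted p = 0.000222). The other G1 rises were Bcat1 L2c (0.47, adjusted p = 0.0292) and G3bp2 L3. The Bcat1 call was lost with DESeq2 (adjusted p = 0.0635) and in several refits without 1 library (adjusted p from 0.0944 to 0.17). The 5 largest falls in G1 were those of Mfsd1 L2a (-1.03, adjusted p = 0.000135), Clip1 L3 (-0.93, adjusted p = 0.043), Phldb2 L3 (-0.81, adjusted p = 0.000679), Colgalt1 L2a (-0.77, adjusted p = 7.73e-06) and Suv39h1 L2c, each of them also lower in G4. The Clip1 call had adjusted p from 0.0501 to 0.238 in the 7 refits without 1 library in which it did not pass.

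In G4 against G1 the largest falls and rises were mostly copies already named. Plaur L2b (-2.98), Abcb1b L2 (-2.43) and Suv39h1 L2c (-1.43) were lower in G4, and Pnkd L2c (2.64), 4930461G14Rik L2c (2.47), Taf8 L2a (2.42), Mmp17 L2b (1.85) and Cog4 L3 (1.37) were higher, all on the log2 scale. The exception was Arfip2 L2b, in the 3′ UTR of a gene for a membrane-bending protein (chr7:105635091-105635375). It had 45.9, 56.5 and 61.5 CPM in WT, 59.6, 55.9 and 58.4 in G1, and 16.5, 18.3 and 26.1 in G4, a log2 fold change of -1.49 against G1 (adjusted p = 9.76e-06).

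Summed by repeat name, 15 member subfamilies could be tested, and in G4 against WT 7 of them were lower and none was higher. Over all 853 tested repeat names 46.5% were called and 23.4% fell. TMM factors were set separately for repeat names (1.05 to 1.09 in G4) and for families (0.986 to 1.03 in G4). Small changes and CPM of names and families are therefore on different scales. With the TMM factors of single copies, an alternative added after seeing the data, 1 rise and 4 falls of member subfamilies were called. X8_LINE had 45.7, 46.3 and 41.3 CPM in WT, 38.4, 36.5 and 38.7 in G1, and 20.9, 13.7 and 19.3 in G4 (log2 fold change -1.30, SE 0.224, adjusted p = 6.84e-05). X7B_LINE had 242, 228 and 208 CPM in WT, 229, 199 and 253 in G1, and 106, 138 and 148 in G4 (-0.78, SE 0.125, adjusted p = 2.86e-05). In both, the G4 libraries lay below all others.

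These sums were close to single copies. X8_LINE drew 96.3% of its counts from 1 copy in the 3′ UTR of Eloa, an elongin gene (chr4:136004852-136004976). X7B_LINE drew 86.7% from 1 copy in the 3′ UTR of the splicing factor gene Srsf10 (chr4:135867312-135867507, log2 fold change -0.80, adjusted p = 3.44e-05), whose values were not all whole numbers. CR1_Mam (145 ± 21.2 CPM in WT and 97.6 ± 18.4 in G4, SD, n = 3, log2 fold change -0.57, adjusted p = 0.00289) drew 53.1% from an intronic copy of Srsf10 beside it (-0.56, adjusted p = 0.0355). So the leading copies of 2 of the 7 falling subfamilies lie side by side in 1 gene.

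The other 4 falls were small, and those of L3b and L3 also depended on leading copies, as given below. L3b went from 606 ± 31.1 to 503 ± 48.8 CPM (log2 fold change -0.27, adjusted p = 0.00834), L3 from 2822 ± 75.3 to 2450 ± 205 CPM (-0.20, adjusted p = 0.00429), L2c from 3530 ± 254 to 3079 ± 132 CPM (-0.20, adjusted p = 0.00296) and L2 from 2855 ± 38.7 to 2610 ± 38.8 CPM (-0.13, adjusted p = 0.01), each as mean ± SD of 3 WT and 3 G4 libraries. Their leading copies held 49.0% (Sptan1), 29.2% (G3bp2), 15.6% (Srrm2) and 20.3% (Aplp2) of the counts. Without TMM the median of all repeat names moved up by 0.135, and then 3 of the 7 falls held (X8_LINE, X7B_LINE and CR1_Mam), L2 stood at 0.0068 and L2b was called as a rise (0.24, adjusted p = 0.00014), so the direction of the L2 subfamily depended on the scaling. With the leading copy of every repeat name left out, L3b stood at 0.131 (adjusted p = 0.259) and L3 at -0.084 (adjusted p = 0.336).

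The subfamilies not called in G4 against WT were L2a (log2 fold change -0.08, adjusted p = 0.108), L2b (0.10, adjusted p = 0.083), Plat_L3 (-0.17, adjusted p = 0.336), X6B_LINE (-0.21, adjusted p = 0.516), X7A_LINE (0.12) and the RTE-X names L4_A_Mam (0.13, adjusted p = 0.646), L4_B_Mam (0.24, adjusted p = 0.585) and L4_C_Mam (0.00, adjusted p = 0.996). In G1 against WT, 11.8% of all repeat names were called and of the members only L2a, which was lower (-0.16, SE 0.0392, adjusted p = 0.0104). Its highest copy, Tubb5 L2a, held 18.7% of its counts. In G4 against G1, where 42.4% of all names were called, 6 members were lower, namely X8_LINE (-1.07), X7B_LINE (-0.79), CR1_Mam (-0.45), L3b (-0.29), L3 (-0.23) and L2 (-0.13). Without TMM, 2 falls (X8_LINE and X7B_LINE) and 2 rises (L2a and L2b) were called there instead, where the median of all repeat names moved up by 0.145.

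**Figure D5:**
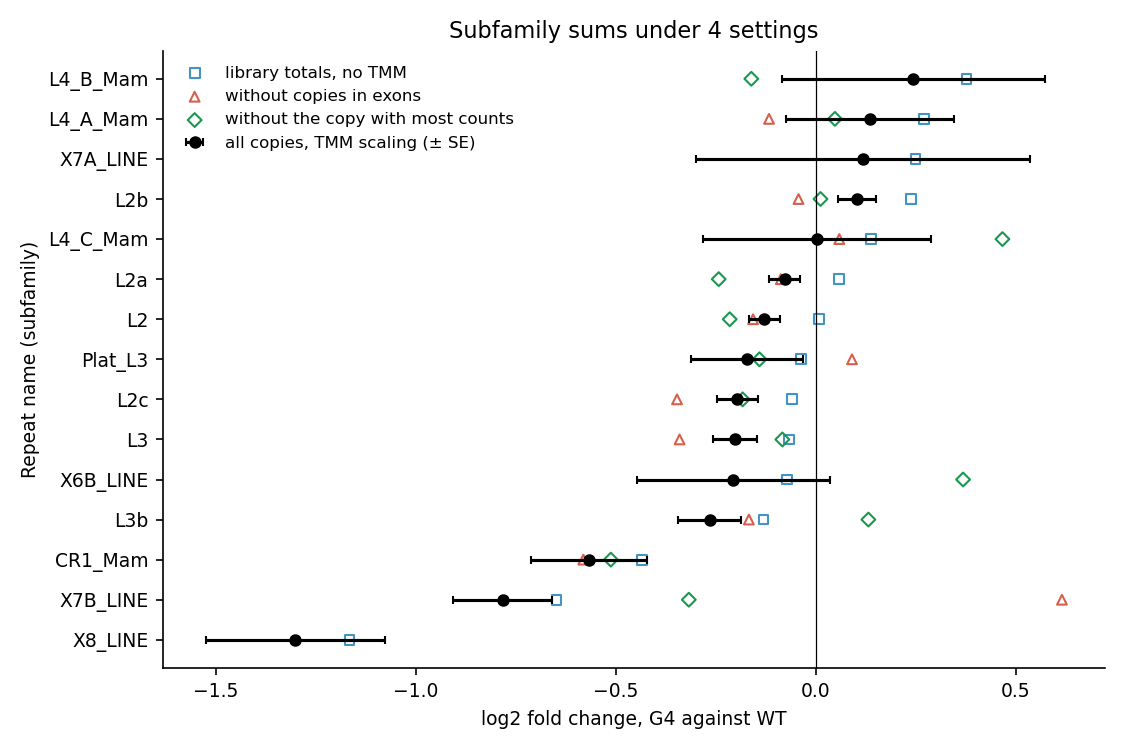
The log2 fold change in G4 against WT of each of the 15 tested subfamily sums (black points, bars of 1 SE) with the value without TMM (blue squares), without copies in exons (red triangles) and without the copy with most counts (green diamonds), where a value could be computed. X8_LINE, X7B_LINE and CR1_Mam lie lowest, and X7B_LINE moves to 0.615 without copies in exons.

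By family, CR1 was lower in G4, with levels of 3849, 4037 and 3827 CPM in WT, 4056, 4049 and 3868 in G1, and 3233, 3664 and 3799 in G4, a log2 change of -0.13 (SE 0.0479, adjusted p = 0.0222) against WT and -0.16 (adjusted p = 0.00579) against G1. G4 replicate 1 was the lowest library, and CR1 was not called against WT without it, nor in 4 of the other 8 refits without 1 library. With the leading copy of every family left out, which for CR1 is G3bp2 L3, the difference was -0.0845 (adjusted p = 0.162) against WT and 0.0042 (adjusted p = 0.933) against G1.

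The L2 family had 12464, 13431 and 13123 CPM in WT, 12612, 12169 and 12606 in G1, and 13023, 13253 and 13531 in G4. It was not called in G4 against WT (log2 fold change 0.03, adjusted p = 0.434) or in G1 against WT (-0.06, adjusted p = 0.163), and it was higher in G4 than in G1 (0.09, SE 0.0322, adjusted p = 0.0191). The last call was lost with the leading copy of every family left out, which for L2 is Tubb5 L2a (0.0206, adjusted p = 0.761). In the same comparison without copies in exons, L2 was called as lower (-0.121, adjusted p = 0.00292). With DESeq2 size factors the L2 rise in G4 against WT was called (0.079, adjusted p = 0.0242) and the CR1 fall was not (-0.080, adjusted p = 0.131). RTE-X stood at 78.3 ± 5.85 CPM in WT, at 82.8 ± 12.4 in G1 and at 91.3 ± 12.4 in G4 (mean ± SD of 3 libraries each) and was not called in any comparison (0.22, adjusted p = 0.209 in G4 against WT). Of all 36 tested families, 55.6% were called in G4 against WT, 19.4% in G1 against WT and 55.6% in G4 against G1, among them MIR, which was lower in G4 than in WT (-0.10, adjusted p = 0.0023).

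The L2 counts were also split by place. Scaled by library totals alone, in CPM, exonic L2 copies had 7950 ± 598 counts in WT, 7060 ± 339 counts in G1 and 8439 ± 442 counts in G4 (mean ± SD of 3 libraries each), and intronic ones 4347 ± 213, 4436 ± 134 and 4229 ± 397. A difference between places was not tested. Copies over 5 kb from genes had 293 ± 16.9, 272 ± 26.1 and 299 ± 33.5, of which Olfr687 L2c alone held 37.3%. Relative to the other repeats left in each fit, L2 changed in G4 against WT by -0.146 without copies in exons (adjusted p = 0.00043) and by -0.487 among copies over 5 kb from genes (adjusted p = 5.27e-07), whereas the level of these far copies by library totals overlapped between the groups.

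The share of a library's repeat counts on L2, CR1 and RTE copies was steady. It was 1.64%, 1.75% and 1.71% in WT, 1.65%, 1.61% and 1.62% in G1, and 1.68%, 1.73% and 1.72% in G4. The lowest library, G1 replicate 2, had a 95% Wilson interval of 1.58% to 1.63% and the highest, WT replicate 2, of 1.72% to 1.77%, which cover counting error only. G4 and WT overlapped (difference 0.0070 percentage points, exact two-sided permutation p = 0.8). The G1 mean differed from WT by -0.0737 points, with overlapping libraries (exact p = 0.2), and G4 lay above G1 in every library (0.0807 points, exact p = 0.1). With 3 libraries against 3 the exact test cannot go below 0.1, and over the 9 tests of shares and ratios the adjusted values were 0.9, 0.3 and 0.225.

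Members were also read against MIR, the partner repeat. The log2 ratio of member to MIR counts was -0.537 ± 0.0278 in WT, at -0.488 ± 0.00104 higher in G1 and at -0.438 ± 0.0120 highest in G4 (mean ± SD of 3 libraries each), with no overlap between any of the groups and differences of 0.0995 for G4 against WT, 0.0489 for G1 against WT and 0.0506 for G4 against G1 (exact two-sided permutation p = 0.1 for each, the smallest possible, and 0.225 adjusted). Outside chromosome 6 the differences were 0.0428, 0.0266 and 0.0163, and G1 then overlapped WT (exact p = 0.4). The sign turned without copies in exons (-0.0650 for G4 against WT). Against L1M the ratios overlapped between G4 and WT (difference 0.0092, exact p = 0.9), between G1 and WT (-0.0440, exact p = 0.4) and between G4 and G1 (0.0531, exact p = 0.2).

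MicroRNA genes are a known product of L2 relics, and 8 annotated hairpins overlapped a member copy with counts. For 7 of them RefSeq (GRCm38.p6) holds a mature sequence, and those inside copies with at least 5 counts are given here 5′ to 3′ with the seed, bases 2 to 8, in capitals. No seed is shared among them.
mmu-miR-5125: uCUGCCUGggauuuccuugu
mmu-miR-421-5p: cUCAUUAAauguuuguugaau
mmu-miR-374b-3p: gGUUGUAUuaucauuguccgag
mmu-miR-374c-5p: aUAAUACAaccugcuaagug
mmu-miR-1249-3p: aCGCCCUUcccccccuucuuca

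Libraries of this kind do not capture mature microRNAs, so counts on these copies are of longer RNA. Mir5125 lies in the intronic Srrm2 L2c copy, which had 4655 counts over the 9 libraries and whose levels are given above. The hairpins Mir421, Mir374b and Mir374c overlap a single L2c copy in an intron of Ftx, a non-coding RNA gene of the X inactivation centre, with 11 counts in all. The Mir1249 copy had 5 counts, and the L2a copy of Gm23134 in the imprinted gene Nnat, for which no mature sequence was found, had 306 counts.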

How the data were processed

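RNA-seq was deposited for 9 ESC libraries, 3 each of WT (columns named Control), G1 Terc-/- and G4 Terc-/-. Per the labels, feeders were removed, TruSeq libraries were made from total RNA, and FastQC 0.11.9, STAR 2.5.3a, featureCounts and mm10 were used. The deposited values are estimated counts per repeat copy, some of them fractional, made by the authors in a way the sources used here do not describe. A second table of signal values was made by the authors by dividing the rounded counts by 1 size factor per library, and it was not used for tests. Reads shared between similar copies could be divided among them.

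Copies were placed on GENCODE M21 with bedtools 2.31.1. Of its 55536 gene models, those of ribosomal and small non-coding RNAs and those typed TEC were left out. Distances to a gene refer to the remaining models. Counts were summed where needed (by repeat name, family, or the other repeats of a gene), rounded and tested with edgeR 4.0.16 in R 4.3.3 after filterByExpr, with TMM factors and the totals of the whole table (quasi-likelihood, 9 libraries, no block, two-sided, Benjamini-Hochberg over all features of a level). A call needed an adjusted p below 0.05. The SE was taken as the size of the log2 fold change divided by the root of F, and CPM values are TMM-scaled. Alternatives were DESeq2 1.42.0, other scalings, filters, subsets of copies, a block and leave-one-out. The fit was tested on simulated data, in which 5.38% of copy calls were false, 2.26% of those of genes read by repeats in exons and 9.52% of those of genes read by repeats in introns. The simulated data held fewer changes than were called in G4 against WT, so these rates may differ in the real fits.

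Copies named were the 10 that rose and the 10 that fell most in G4 against WT, and 5 of each in the other comparisons, among called copies with a mean of at least 20 counts and no overlap between groups, the 8 with the highest mean CPM, all tested subfamilies and all families. 1 copy that this rule picks is not reported here. The members, lists and rules were chosen with earlier results of these data known. Libraries within a group differed beyond sampling noise (chi-square per degree of freedom 1.32 to 2.21 over member copies).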

Additional observations from a re-analysis of the deposited data

How the results depend on the processing

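Of the member copies named for their change, the 20 of G4 against WT kept their call and sign in all 394 alternative values and the 10 of G4 against G1 in all 197, while 7 of the 8 of G1 against WT lost the call in 40 of 158 values. These copies were chosen as the largest called changes without overlap, which favours kept calls. Aplp2 L2 and Srrm2 L2c, named for abundance, lost their calls in G4 against WT in several settings. The count of called copies in G4 against WT (97) became 62 with a 2-fold rule on unadjusted p and 61 with the adjusted p and a 2-fold change. In G1 against WT (13) it became 6 with a looser filter, 4 without a filter and 2 with a 2-fold change added. In G4 against G1 (80) it became 52 without a filter and 51 with a 2-fold change added. DESeq2 called 78, 9 and 60. Leaving out 1 library gave 82 to 109, 5 to 14 and 63 to 88 copies. It gave 30 to 45, 2 to 5 and 24 to 31 copies that moved with their gene, and the 2 in G1 against WT came without WT replicate 2 or without G1 replicate 2.

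Subfamily calls in G4 against WT (7) became 4 without TMM, 2 with a 1.5-fold rule, 2 over 5 kb from genes, 4 without copies in exons and 4 without each leading copy. In G1 against WT (1) they became 0 with the 1.5-fold rule and 0 without exons, and in G4 against G1 (6) they became 2, 1, 3 and 1 with the 1.5-fold rule, far from genes, without exons and without the leading copy. Family calls in G4 against WT (1) became 0 in a 2-group fit, with whole values alone, outside chromosome 6 or without the leading copy, and 2 without exons. In G1 against WT (0) they became 1 without TMM, in a 2-group fit and with TMM factors of single copies, an alternative added after seeing the data. In G4 against G1 (2) they became 1 with whole values, outside chromosome 6 or far from genes, and 0 without the leading copy. Without 1 library, family calls in G4 against WT ran from 0 to 1 (0 without WT replicate 2, any G1 replicate or G4 replicate 1), subfamily calls in G1 against WT from 0 to 2, and family calls in G4 against G1 from 1 to 2.

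Signs turned as follows, and the cause was not tested. Without copies in exons, the share differed by 0.0108 points (G1 against WT) and -0.0299 (G4 against G1), the MIR ratio by -0.0650 (G4 against WT) and -0.0724 (G4 against G1), the L1M ratio by -0.0377 (G4 against G1), X7B_LINE by 0.615 (G4 against WT) and 0.590 (G4 against G1), L2a by 0.0357 (G1 against WT), L3b by 0.0229 (G4 against G1) and the L2 family by -0.146 (G4 against WT) and -0.121 (G4 against G1). Over 5 kb from genes, the MIR ratio differed by -0.165 (G1 against WT), -0.251 (G4 against G1) and -0.416 (G4 against WT), the L1M ratio by -0.320 (G4 against WT), the L2 subfamily by 0.0921 (G4 against WT) and 0.0338 (G4 against G1) and the L2 family by -0.487 (G4 against WT) and -0.318 (G4 against G1). Without the leading copies of all repeat names or families, L3b stood at 0.131 (G4 against WT) and 0.0591 (G4 against G1), L3 at 0.0726, X7B_LINE at 0.0732 and the CR1 family at 0.0042 (all G4 against G1). Without TMM the L2 subfamily stood at 0.0068 (G4 against WT) and 0.0112 (G4 against G1), and with whole values X7B_LINE at 0.021 (G4 against G1). For copies, subfamilies and families, a sign change of a value that was called under neither setting is not listed.

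The replicate numbers did not pair the libraries, since same-numbered libraries of different groups had correlations of their deviations from -0.0153 to 0.0208. With the replicate number as a block, 94, 11 and 79 copies, 7, 1 and 6 subfamilies and 1, 0 and 2 families were called, and 37, 4 and 28 copies moved with their gene. Of simulated 1.5-fold changes, 2.94% were recovered for copies and 72.1% for repeat names. These simulations held fewer changes than were called in G4 against WT, so the shares need not hold there.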
